A study of Rattus norvegicus with 12 samples.

Results

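The cadherins and protocadherins are cell-adhesion proteins that hold neurons and glia to each other through calcium-binding repeats outside the cell. Members were taken from the table of raw counts as every gene whose symbol begins with Pcdh, or is Cdh followed by a number, other than the endothelial gene *Cdh5*, with a mean count of at least 10 over all 12 rats. This gave 62 genes out of the 17337 in the table, from 67 rows of the family. The 5 rows left out had mean counts from 0.25 for *Cdh17* to 4.58 for *Cdh1*. The members with the lowest mean counts were *Pcdhb2* at 11.2 and *Pcdh12* at 13.8.

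The RNA came from the whole striatum of wild-type male Sprague-Dawley rats, 8 weeks old at lever training, that pressed for intravenous methamphetamine (MA) in daily sessions over 16 days. The MA12 group (n = 4, rats 21, 31, 4N and 7N) then had 12 h of abstinence, and the MA24 group (n = 4, rats 9N, 14N, 15N and 16N) had 24 h. For these groups only rats with stable pressing had been kept. A further group (n = 4, rats 9, 11, 12 and 13) carries the label non-addicted. Its labels give the same drug and days, so by its labels it is not a saline group, but the paper describes no group of this name. Neither how a rat came to be called non-addicted nor its time since the last session is given in the sources used here. By the labels no saline rats were analysed here, so no level in these data is taken as a drug-free baseline. If sessions were held at a fixed hour, MA12 and MA24 rats were also killed at different times of day, and abstinence and time of day cannot be told apart.

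Classical cadherins join like to like across the synaptic cleft and are tied to actin inside the cell by catenins. The non-clustered delta protocadherins act in axon outgrowth, synapse turnover and the sorting of neurons. The clustered protocadherins come from the alpha, beta and gamma arrays, in which each neuron uses its own small choice of promoters, and this gives cell surfaces an identity by which branches of the same neuron avoid each other. In the striatum, adhesion proteins of this family are best known from the guidance and maturation of cortical input onto the projection neurons.

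Of the 62 members, 14 were cadherins, 10 were non-clustered protocadherins and 38 were clustered protocadherins. The cadherins comprised 3 type I genes (*Cdh2*, *Cdh3*, *Cdh15*), 9 type II genes (*Cdh6*, *Cdh7*, *Cdh8*, *Cdh9*, *Cdh10*, *Cdh11*, *Cdh19*, *Cdh20*, *Cdh22*) and 2 atypical genes (*Cdh13*, *Cdh23*). The non-clustered protocadherins comprised 3 delta-1 genes (*Pcdh7*, *Pcdh9*, *Pcdh11x*), 4 delta-2 genes (*Pcdh8*, *Pcdh17*, *Pcdh18*, *Pcdh19*) and 3 others (*Pcdh12*, *Pcdh15*, *Pcdh20*). The clusters held 14 alpha, 11 beta and 13 gamma genes.

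The clustered genes sit side by side, each with its own promoter, and short runs of bases are shared between some of those promoters. Such runs are shown because 38 of the 62 members are clustered genes. RefSeq (build GRCr8, not the rn6 build on which the counts rest) gave a window of 250 bases before and 50 after the start for 42 of the 62 members, 24 of them clustered. The other 13 alpha symbols of the table are synonyms of *Pcdha4* there. The run of 10 bases held by most of the 11 beta windows was GGTGGCGCTG (reverse complement CAGCGCCACC). It was found on the strand of the gene in all 11, in 0 of the 12 gamma windows, and on either strand in 0.221% of the 33469 windows of the table. The run held by most of the 12 gamma windows was GCTGTTCACC (reverse complement GGTGAACAGC). It was found in 7 of the 12, in 0 of the 11 beta windows, and in 0.12% of all windows. No member window held both runs, so their matches did not overlap. Neither run was in the *Pcdha4* window or in the 18 windows of other members. The runs were chosen from these windows for being shared, and genes of an array are close copies of each other. The matches therefore describe the sequences only, and whether a protein binds there was not tested. The stretches below give 20 bases on each side of the run, which is in capitals, on the plus strand and 5′ to 3′. *Pcdhb2* and *Pcdhb21* are shown for their low counts outside MA12. *Pcdhb20* and *Pcdhb12* are shown as beta genes with a log2 fold change (log2FC) near 0 between MA24 and MA12. The gamma genes shown are those with the lowest log2FC (-0.53 to -0.65) among the 7 with the run, which ranged from -0.65 to -0.11.
Pcdhb2 (chr18:29279913-29279962): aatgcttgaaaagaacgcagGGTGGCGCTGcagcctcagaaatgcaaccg
Pcdhb21 (chr18:29492139-29492188): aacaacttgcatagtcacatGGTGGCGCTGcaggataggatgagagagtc
Pcdhb20 (chr18:29485800-29485849): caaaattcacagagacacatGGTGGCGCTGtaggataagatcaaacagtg
Pcdhb12 (chr18:29413638-29413687): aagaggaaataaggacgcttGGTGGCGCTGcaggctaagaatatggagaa
Pcdhga7 (chr18:29794201-29794250): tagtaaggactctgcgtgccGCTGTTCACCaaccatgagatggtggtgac
Pcdhga8 (chr18:29804996-29805045): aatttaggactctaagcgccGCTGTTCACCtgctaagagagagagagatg
Pcdhga10 (chr18:29825810-29825859): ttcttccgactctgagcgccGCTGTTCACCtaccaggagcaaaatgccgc
In 9 of the 11 beta windows the run began within 100 bases before the start, with a range of 52 to 229 bases. In the gamma windows the range was 19 to 250 bases, and 6 of 7 lay within 100.

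Each rat gave 1 library, with 17908962 to 23850284 counts on genes. Striatal projection neuron markers were present in all 12 libraries, with a summed level of 14429 to 18910 CPM (counts relative to library size), against 19.2 to 33.6 CPM for cortical excitatory markers, and of the 11 marker lists only *Pmch* and *Col1a2* were at 0 in every library. The 4 MA24 rats all have numbers ending in N, as do those of 2 of the 4 MA12 rats, while the non-addicted rats have plain numbers, and what N stands for is not given in the sources used here. Rat 14N of the MA24 group stood apart for this gene family. It had the lowest level of all 12 rats for 26 of the 62 members (41.9%) and the highest for 0. Over the 10754 genes tested between MA24 and MA12 it was the lowest for 15.6%. Its total of 20479542 counts was within the range of the others. The edgeR calls and the medians of members in comparisons with MA24 are therefore also given without this rat, while DESeq2 was run only with it.

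**Figure D1:**
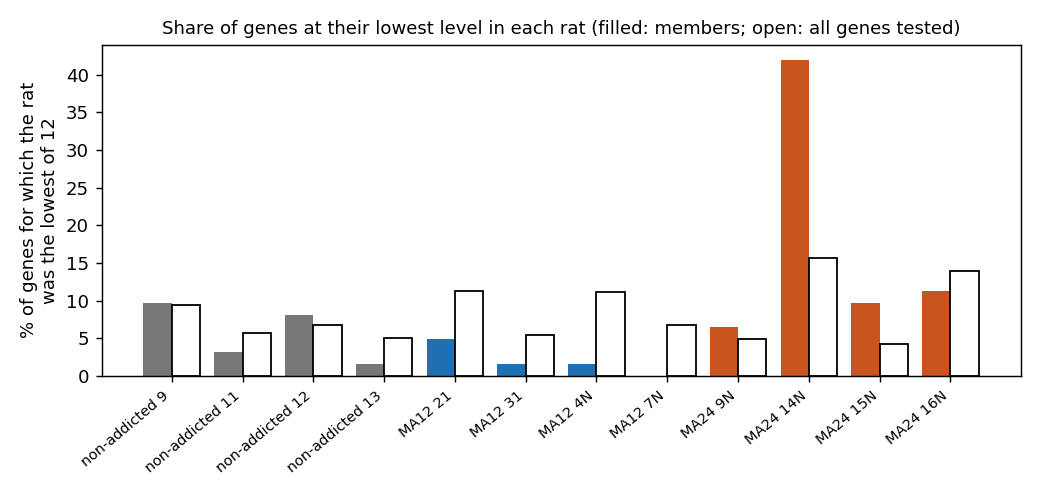
Share of genes, in percent, for which each rat had the lowest level of the 12 rats, with filled bars for the 62 members (grey non-addicted, blue MA12, orange MA24) and open bars for the 10754 genes tested. Rat 14N reached 41.9% of members against 15.6% of all genes, while MA12 rat 7N was the lowest for 0 members.

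Most members had a lower level in MA24 than in MA12, and few of these differences passed the test. Of the 61 members tested, 54 had a log2FC below 0 and 7 above, which was 88.5% below 0 against 51.7% of all 10754 genes tested. The median log2FC of the members was -0.35, with a middle range of -0.57 to -0.21, against -0.02 over all genes. *Cdh13*, encoding the lipid-anchored T-cadherin, was the member removed by the filter on variance, and its log2FC in the fit without that filter was 0.06 (SE 0.07). A DEG is a gene with a Benjamini-Hochberg adjusted p below 0.05 in edgeR's quasi-likelihood test and an FC of at least 1.5. By this rule 3 members fell (*Cdh6*, *Pcdh7*, *Pcdh19*), against 1.72% of all genes, and 0 rose, against 0.735% of all genes. DESeq2 called 5 members, all lower, against 2.98% of all genes in either direction. In edgeR no member had an unadjusted p below 0.05 with a log2FC above 0. At an unadjusted p below 0.05, 25 of the 61 members (41%) were lower in edgeR, against 13.1% of all genes. In bulk tissue, fewer cells of a type and less RNA per cell cannot be told apart.

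Without rat 14N, 54 of the 61 members still had a log2FC below 0, the median was -0.28, and 2 were called (*Cdh6* and *Pcdh7*). Among the N-numbered rats alone, 2 MA12 against 4 MA24, the median was -0.37 against 0.02 for all genes, 52 members were below 0, and *Cdh6*, *Pcdh7* and *Pcdhga10* were called. Where a term for N-numbered against plain-numbered rats was added, the median was -0.38. In that fit edgeR called 0 members, while 47 of all genes were still called. There 24 members had an unadjusted p below 0.05. The share of all genes at that p in this fit is not given here, so the 24 cannot be weighed.

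*Cdh6*, a type II cadherin, gave the clearest difference among the cadherins. Its level was 5.32, 4.79, 5.03 and 4.98 log2 CPM in MA12 rats 21, 31, 4N and 7N, and 4.59, 3.93, 3.98 and 4.27 in MA24 rats 9N, 14N, 15N and 16N. Every MA24 rat lay below every MA12 rat. Its log2FC was -0.83 (SE 0.15, 1.77-fold lower; adjusted p = 0.00606 in edgeR and 0.000101 in DESeq2), and the call held without rat 14N. Non-addicted rats 9, 11, 12 and 13 had 4.06, 4.75, 4.56 and 4.88 log2 CPM, which overlapped both groups.

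*Pcdh7*, a delta-1 protocadherin known for binding a protein phosphatase through its tail, fell by a similar amount. MA12 rats lay close together at 5.73, 5.66, 5.86 and 5.62 log2 CPM, and the MA24 rats were spread over 5.32, 4.10, 4.93 and 5.13. The groups did not overlap, and the lowest MA24 value was that of rat 14N. The log2FC was -0.78 (SE 0.17, adjusted p = 0.0153 in edgeR) and the difference was called in all 8 fits that left out 1 rat. Levels in non-addicted rats were 4.81, 5.52, 5.32 and 5.54 log2 CPM, below all MA12 rats. Against MA12 they had a log2FC of -0.40 (SE 0.13, adjusted p = 0.18 in edgeR).

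*Pcdh19*, a delta-2 protocadherin whose human gene is mutated in an X-linked epilepsy, had 3.72, 3.84, 3.69 and 3.33 log2 CPM in MA12 and 3.04, 2.52, 2.94 and 3.11 in MA24. The MA24 rats were again all below the MA12 rats, with rat 14N lowest. The log2FC was -0.74 (SE 0.17, adjusted p = 0.0202 in edgeR). This call did not hold without MA12 rat 21, MA12 rat 31 or MA24 rat 14N, nor among the N-numbered rats alone, nor with the term for the kind of number. The highest adjusted p among these fits was 0.206, and the log2FC stayed between -0.83 and -0.60.

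**Figure D2:**
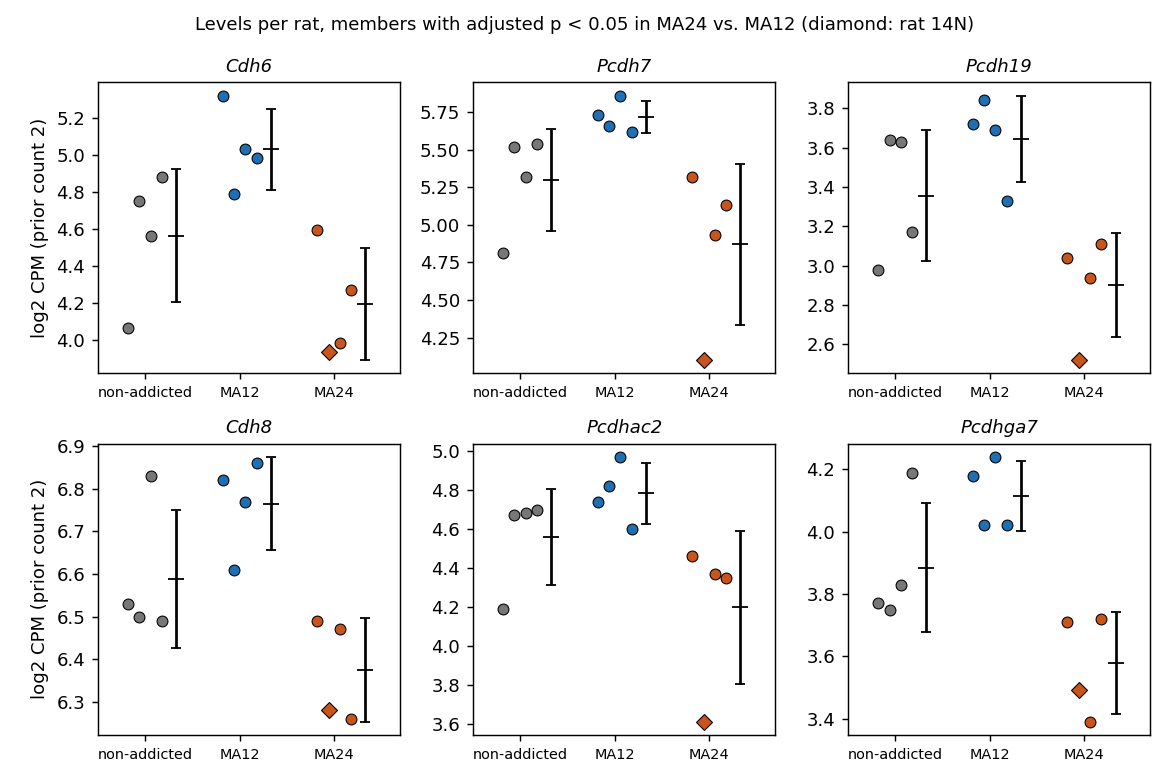
Level in log2 CPM (prior count 2) of the 6 members with an adjusted p below 0.05 in MA24 vs. MA12, each point 1 rat, with the group mean and SD (n = 4) beside the points and rat 14N as a diamond. In all 6 panels every MA24 rat lies below every MA12 rat, and non-addicted rats lie between or across them.

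At an adjusted p below 0.05 without the FC limit, 6 of 61 members were lower, against 3.32% of all genes, and the further 3 came from 3 different branches of the family. *Cdh8*, a type II cadherin of corticostriatal connections, had 6.61 to 6.86 log2 CPM in MA12 and 6.26 to 6.49 in MA24 (log2FC -0.38, SE 0.10, adjusted p = 0.0322 in edgeR). *Pcdhac2*, the most counted alpha gene and one of the C-type isoforms, had 4.60 to 4.97 log2 CPM in MA12 and 3.61 to 4.46 in MA24 (log2FC -0.56, SE 0.15, adjusted p = 0.0422 in edgeR). *Pcdhga7*, a gamma A-type isoform, had 4.02 to 4.24 log2 CPM in MA12 and 3.39 to 3.72 in MA24 (log2FC -0.53, SE 0.14, adjusted p = 0.0284 in edgeR). The groups did not overlap for any of these genes. Without rat 14N the log2FC was -0.35 for *Cdh8*, -0.40 for *Pcdhac2* and -0.51 for *Pcdhga7*, and the adjusted p in edgeR was 0.0803, 0.0914 and 0.071.

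MA24 and MA12 did not overlap for 13 of the 61 members (21.3%), all with MA24 lower, against 8.4% of all genes that were lower without overlap. Members that were higher without overlap numbered 0, against 7.16% of all genes. Past the 6 genes above, the largest differences among the members without overlap were those of *Pcdhb2* (log2FC -1.54), *Pcdhb21* (-0.85), *Pcdhga2* (-0.57), *Pcdhgb7* (-0.43) and *Cdh2* (-0.33), with edgeR adjusted p from 0.0557 to 0.115. *Pcdhb2* reached the mean count of 10 for members only with its MA12 counts (mean 23, against 7.5 in MA24). Its difference is therefore no separate support. Members with overlapping groups reached -0.89 for *Pcdhb6* and -0.83 for *Pcdha4*. *Cdh2* encodes N-cadherin, the main classical cadherin of excitatory synapses. Its levels were 6.61, 6.62, 6.70 and 6.39 log2 CPM in MA12, and 6.17, 6.29, 6.36 and 6.18 in MA24.

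Among the type II cadherins, 7 of 9 had a log2FC below 0, and 6 of 9 had an unadjusted p below 0.05, all lower in MA24. *Cdh10* (log2FC -0.26) and *Cdh11* (log2FC -0.22) were lower without overlap, with edgeR adjusted p of 0.148 and 0.179. *Cdh22*, the most counted of them, and *Cdh7* had log2FC of 0.12 and 0.10. The 3 delta-1 protocadherins each had an unadjusted p below 0.05, at log2FC of -0.78 for *Pcdh7*, -0.66 for *Pcdh11x* and -0.27 for *Pcdh9*. Of the delta-2 genes, *Pcdh17*, which acts at presynaptic sites of the basal ganglia, had a log2FC of -0.41 (SE 0.17). *Pcdh8*, also called arcadlin and known to follow neuronal activity, had a log2FC of 0.03 (SE 0.11). Its MA12 level of 7.01 ± 0.15 log2 CPM and its MA24 level of 7.04 ± 0.14 (SD, n = 4 each) were within the spread of the rats. *Pcdh20* had a log2FC of -0.26 (SE 0.12, adjusted p = 0.208 in edgeR). The type I gene *Cdh15* and the atypical *Cdh23* had log2FC of 0.20 (SE 0.19) and -0.18 (SE 0.31).

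**Figure D3:**
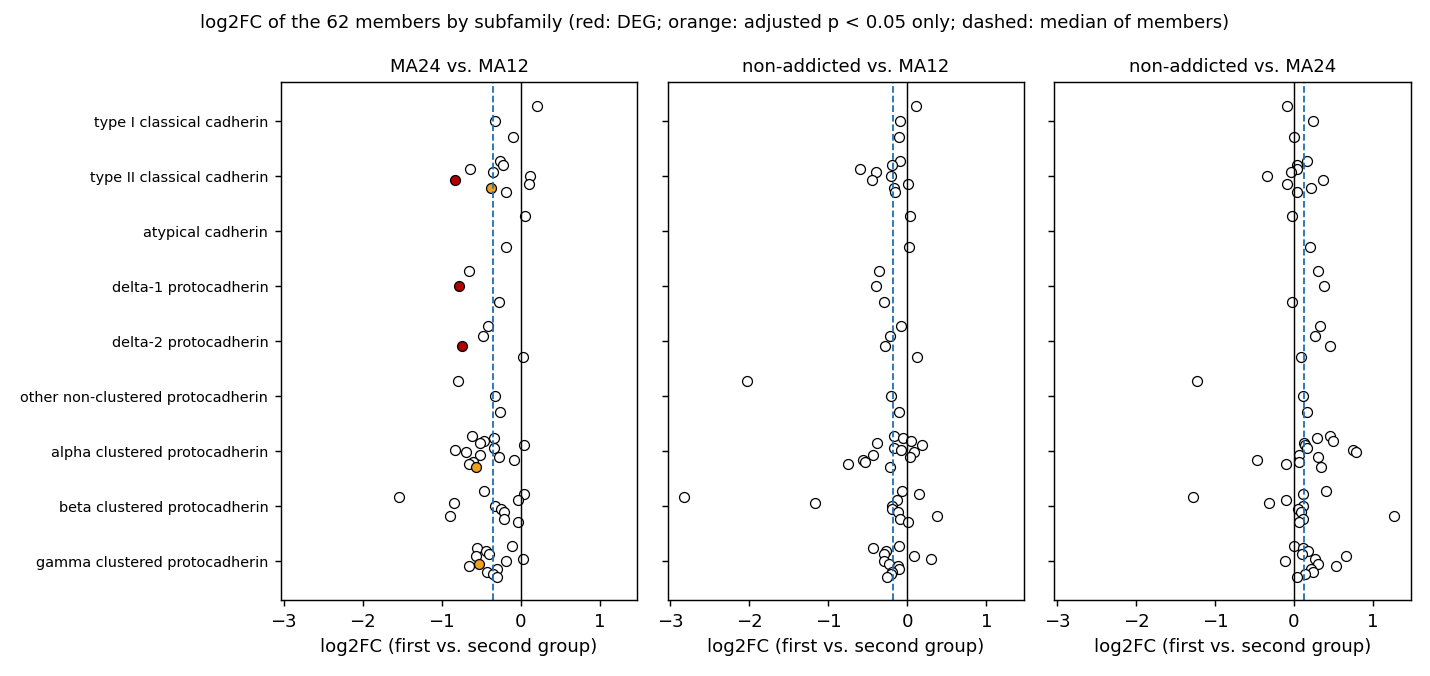
log2FC of the 62 members in the 3 comparisons, each point 1 gene, in rows by subfamily, with the dashed line at the members' median (-0.35, -0.18 and 0.13) and the solid line at 0. DEGs are red (*Cdh6*, *Pcdh7* and *Pcdh19* in MA24 vs. MA12), genes with an adjusted p below 0.05 only are orange, and the comparisons share groups of rats.

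Most clustered protocadherins had a log2FC below 0 in each of the 3 arrays, and few single genes passed a test. Below 0 were 13 of 14 alpha genes (median log2FC -0.51), 10 of 11 beta genes (median -0.25) and 12 of 13 gamma genes (median -0.40). Without rat 14N the counts below 0 were the same, with medians of -0.38, -0.26 and -0.24. By edgeR's rule 0 of these 38 were DEGs, while DESeq2 called 2, *Pcdha4* and *Pcdhb21*, against 2.98% of all genes. In edgeR 12 had an unadjusted p below 0.05 (31.6%), all lower in MA24. Of all genes 13.1% were lower at that p, and 23.6% passed it in either direction. Without rat 14N there were 10 (26.3%), against 19.1% of all genes in either direction. The beta members all hold the shared promoter run shown above, and their log2FC ranged from -1.54 for *Pcdhb2* to 0.04 for *Pcdhb12*. The 7 gamma genes with their own run had a median log2FC of -0.40 and the 5 gamma genes whose window lacks it one of -0.35, which became -0.24 and -0.20 without rat 14N.

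The 14 alpha genes together gave 71.3, 68.2, 77.4 and 70.4 CPM in MA12 rats 21, 31, 4N and 7N, and 60.9, 32.6, 52.6 and 55.9 CPM in MA24 rats 9N, 14N, 15N and 16N. The sums did not overlap, and rat 14N was far below the other rats. The 11 beta genes summed to 67.4 to 80.2 CPM in MA12 and 56.8 to 65.5 CPM in MA24, where rat 14N, at 64.7 CPM, was not low. The 13 gamma genes summed to 245 to 297 CPM in MA12 and 150 to 247 CPM in MA24, and these ranges overlapped. Genes of the alpha array share their last exons, as do those of the gamma array, the TruSeq v2 kit does not mark strand, and how reads in shared or overlapping exons were assigned is not given in the sources used here, so the split between single alpha and gamma genes is uncertain.

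The shares of the leading alpha and gamma members were similar in the 3 groups. The leading beta gene, *Pcdhb9*, took 19.8% ± 1.48 of the beta counts in MA12, 22.4% ± 3.15 in MA24 and 21.8% ± 1.46 in non-addicted rats. Both of the latter means lay above the MA12 mean by more than the MA12 SD, though the rats overlapped. *Pcdhac2* took 38.2% ± 3.15 of the alpha counts in MA12, 37.1% ± 1.43 in MA24 and 38.4% ± 3.51 in non-addicted rats (SD, n = 4 each). *Pcdhgc3*, a C-type gamma isoform, took 49.7% ± 3.75, 51.7% ± 2.84 and 48.2% ± 2.68 of the gamma counts. For *Pcdhac2* the differences between group means were smaller than each of the SDs. For *Pcdhgc3* the MA24 mean lay above the non-addicted mean by more than the SD of either group, though their rats overlapped (49 to 55.6% against 44.8 to 51%). *Pcdhgc3* itself had a log2FC of -0.30 (SE 0.14, adjusted p = 0.217 in edgeR) in MA24 vs. MA12, and *Pcdhb9*, the most counted beta gene, one of -0.04 (SE 0.15).

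**Figure D4:**
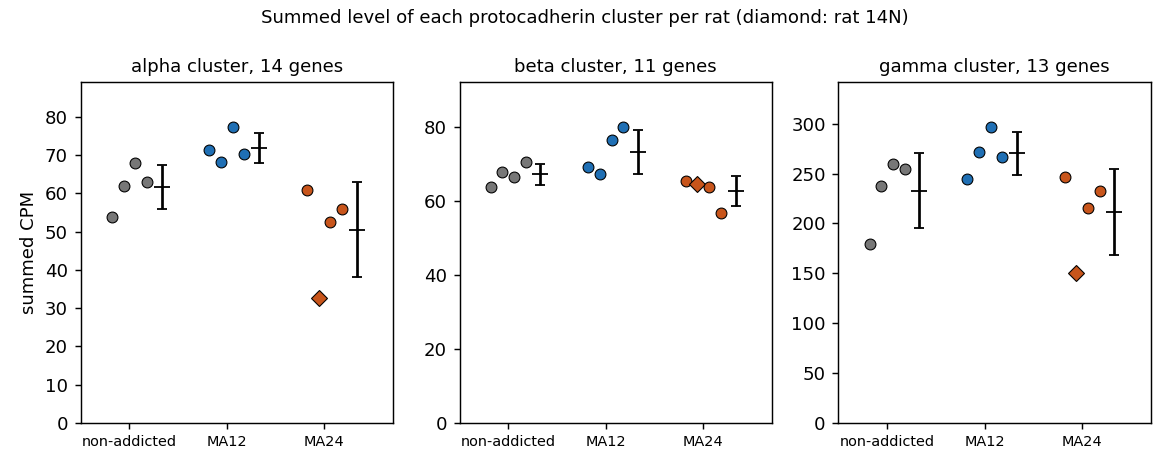
Summed level in CPM, from 0, of the alpha (14 genes), beta (11 genes) and gamma (13 genes) protocadherins in each rat, with the group mean and SD (n = 4) beside the points and rat 14N as a diamond. The alpha sums of MA24 (32.6 to 60.9) lie below those of MA12 (68.2 to 77.4), and rat 14N is the lowest for alpha and gamma but not for beta.

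Non-addicted rats were compared with MA12 to ask how their levels stood against short abstinence. Of 60 members tested, 48 had a log2FC below 0 (80%, against 52.3% of all 10758 genes), with a median of -0.18 against -0.01 over all genes. edgeR called 0 members, against 0.251% of all genes, with 11 at an unadjusted p below 0.05, all lower in non-addicted rats (18.3%, against 7.03% of all genes). DESeq2 called 2, *Pcdhb2* and *Pcdhb21*, against 0.697% of all genes. The groups did not overlap for 5 members, all lower in non-addicted rats, against 3.6% of genes lower and 3.5% higher without overlap. Among them, *Pcdhb2* and *Pcdh12* reached the mean count of 10 for members only with their MA12 counts. Mean counts were 23 and 23.5 in MA12, 7.5 and 12.8 in MA24, and 3 and 5.25 in non-addicted rats. Their lower levels outside MA12 are thus no separate support, and this holds for the DESeq2 call of *Pcdhb2* too.

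*Pcdhb2*, a beta isoform, had 20, 30, 18 and 24 raw counts in MA12 rats 21, 31, 4N and 7N, and 0, 2, 2 and 8 in non-addicted rats 9, 11, 12 and 13. MA24 rats 9N, 14N, 15N and 16N had 12, 1, 8 and 9. MA12 was thus above every other rat, at counts so low that counting error is large. The log2FC of non-addicted rats against MA12 was -2.83 (SE 0.69, adjusted p = 0.081 in edgeR and 0.0133 in DESeq2), and it was called by edgeR without non-addicted rat 13.

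*Pcdhb21*, another beta isoform further along the array, had 100, 79, 101 and 82 raw counts in MA12, and 28, 49, 32 and 45 in non-addicted rats. MA24 rats had 67, 53, 38 and 35, so that MA12 was again above all 8 other rats. The log2FC of non-addicted rats against MA12 was -1.17 (SE 0.28, adjusted p = 0.0798 in edgeR and 0.0121 in DESeq2). The 2 genes share the promoter run but are not neighbours, since the other 9 beta members lie between them.

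*Pcdh12*, the protocadherin of blood vessel endothelium, is the next member after the gamma array on the same chromosome. Genes that are not members were left out of that order. It had 18, 43, 16 and 17 raw counts in MA12, 7, 5, 3 and 6 in non-addicted rats, and 22, 4, 20 and 5 in MA24. MA12 and non-addicted rats did not overlap (log2FC -2.03, SE 0.55, adjusted p = 0.127 in edgeR). The 6 measured endothelial markers summed to 397 to 519 CPM in MA12, 477 to 521 in MA24 and 294 to 418 in non-addicted rats, and the mural and fibroblast markers to 121 to 178, 110 to 131 and 85.6 to 102 CPM. Their part in the *Pcdh12* difference was not tested. Single vascular markers were DEGs between non-addicted rats and MA12 in edgeR, namely *Kdr* of endothelium and *Acta2* and *Tagln* of smooth muscle. Among the other markers, *Pdyn* of projection neurons was also a DEG, lower in non-addicted rats (log2FC -0.65, adjusted p = 0.0281 in edgeR). DESeq2 also called *Cx3cr1* of microglia, lower in non-addicted rats. *Pcdhac1*, with log2FC -0.75 (SE 0.34, adjusted p = 0.37 in edgeR), was the remaining member without overlap beside *Pcdh7*. *Cdh6* had a log2FC of -0.45 (adjusted p = 0.203 in edgeR), *Pcdh9* of -0.30, *Pcdh19* of -0.28, *Pcdhgc3* of -0.26, *Pcdhac2* of -0.22, *Cdh22* of -0.21, *Pcdh20* of -0.10 and *Cdh2* of -0.09. *Pcdh8* lay at 0.12, and *Cdh13* and *Pcdhb9* at 0.03 and 0.01 in the fit without the variance filter. None of these passed the test, and their groups overlapped.

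**Figure D5:**
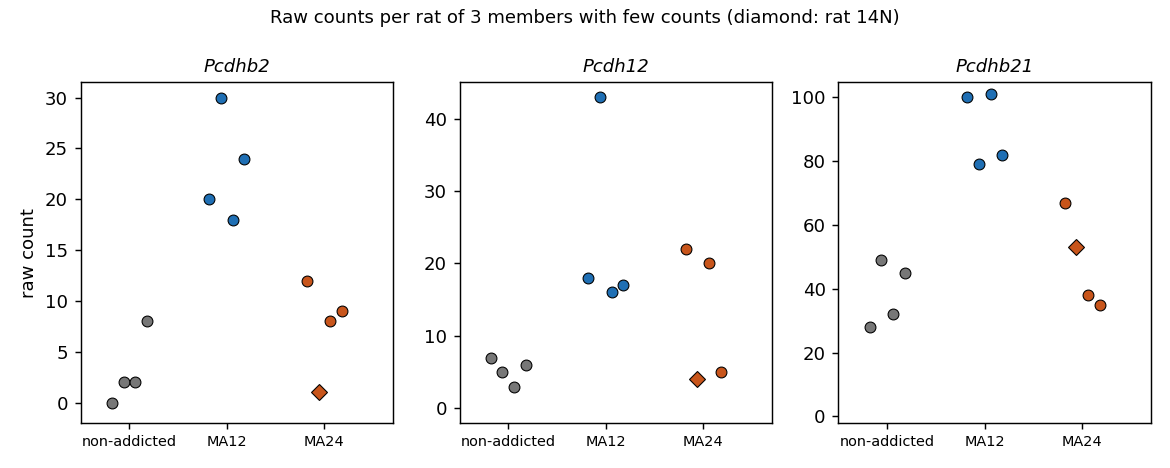
Raw counts per rat, from 0, of *Pcdhb2*, *Pcdh12* and *Pcdhb21*, each point 1 rat and rat 14N a diamond. For *Pcdhb2* and *Pcdhb21* the 4 MA12 rats (18 to 30 and 79 to 101 counts) lie above all other rats, and for *Pcdh12* the MA24 rats fall into a pair near 20 and a pair of 4 and 5. *Pcdhb2* and *Pcdh12* are members only through their MA12 counts.

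Against MA24, the non-addicted rats had a log2FC above 0 for 48 of 60 members, with a median of 0.13 against 0.00 over all 10744 genes. Below 0 were 20% of the members, against 49.7% of all genes. All MA24 rats are N-numbered and all non-addicted rats plain-numbered, so group and kind of number cannot be told apart in this comparison. Without rat 14N the median was 0.07, 24 of 59 members were below 0, and edgeR again called 0, with 5 at an unadjusted p below 0.05. edgeR called 0 members, against 0.456% of all genes, with 8 higher and 1 lower at an unadjusted p below 0.05. These made up 15% of the members, against 17.5% of all genes in either direction. DESeq2 called 1, *Pcdhga2*, against 1.17% of all genes. The groups did not overlap for 4 members higher in non-addicted rats, against 5.1% of all genes, and for 1 lower, against 4.9%. *Pcdhga2* had 3.36, 2.90, 3.42 and 3.28 log2 CPM in non-addicted rats and 2.88, 2.33, 2.51 and 2.60 in MA24 (log2FC 0.66, SE 0.19, adjusted p = 0.105 in edgeR and 0.0397 in DESeq2). The others were *Pcdhga7* (log2FC 0.31), *Cdh2* (0.24), *Cdh8* (0.21) and, lower, *Pcdha8* (-0.47). *Cdh6* had a log2FC of 0.37 (SE 0.17, adjusted p = 0.265 in edgeR), *Pcdh7* of 0.38 (SE 0.20) and *Pcdh19* of 0.46 (SE 0.19). *Cdh22*, the lower member at an unadjusted p below 0.05, had a log2FC of -0.34 (adjusted p = 0.182 in edgeR). The most counted genes of the other branches lay between -0.03 for *Pcdh9* and 0.34 for *Pcdhac2*, with *Cdh13* at -0.02, *Pcdhgc3* at 0.04, *Pcdhb9* at 0.06, *Pcdh8* at 0.09 and *Pcdh20* at 0.16. Summed endothelial, mural and oligodendrocyte markers were lower in every non-addicted rat than in every MA24 rat, with oligodendrocyte sums of 12141 to 17990 against 18755 to 22180 CPM. Both edgeR and DESeq2 called *Cldn5* and *Kdr* of endothelium lower in non-addicted rats. Ependymal and choroid markers went the other way, with a median log2FC of 0.98 and 0 of 6 tested below 0. Of these, edgeR called *Foxj1*, and DESeq2 also *Folr1* and *Tmem212*. The part of all these markers in the members' values was not tested.

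The 3 comparisons share their groups of rats, so they are not independent of each other. Summed over the 62 members, the level was 1536 ± 63.7 CPM in MA12 (1471 to 1622), 1405 ± 77.3 in non-addicted rats (1299 to 1473) and 1314 ± 116 in MA24 (1144 to 1409; SD, n = 4 each). MA12 and MA24 did not overlap, while non-addicted rats overlapped MA24 and, by 1 rat at 1473 CPM, MA12. *Cdh13*, the most counted member, had 7.67 ± 0.07 log2 CPM in MA12, 7.73 ± 0.10 in MA24 and 7.70 ± 0.11 in non-addicted rats.

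Of the partners, regulators and effectors of these proteins, 1 was called in MA24 vs. MA12, and of their relatives in the superfamily 1, where edgeR called 1.72% of all genes lower and 0.735% higher. Of the catenins and other junction partners, 13 of 19 listed symbols were in the table and 10 were tested in MA24 vs. MA12, with a median log2FC of -0.09. *Ctnnal1*, an alpha-catenin relative, rose from 5.12 ± 0.18 to 5.71 ± 0.24 log2 CPM (log2FC 0.60, SE 0.12, adjusted p = 0.0125 in edgeR; SD, n = 4 each). *Adam10*, the protease that sheds N-cadherin and gamma protocadherins, had a log2FC of -0.40 (SE 0.11, adjusted p = 0.0369 in edgeR), below the FC limit. *Ctnnb1*, encoding beta-catenin, had a log2FC of -0.03 (SE 0.10). *Adam10*, *Ctnnb1* and *Ctcf* were picked after their values were seen.

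Of the regulators of the clusters, such as the insulator protein CTCF and the cohesin ring, 11 were tested in MA24 vs. MA12. edgeR and DESeq2 each called 0, with 5 of them at an unadjusted p below 0.05 in edgeR, against 23.6% of all genes, and a median log2FC of -0.15. These went both ways, with *Ctcf*, *Pds5a* (-0.44) and *Pds5b* (-0.23) lower in MA24, and *Mau2* (0.23) and *Setdb1* (0.28) higher. *Ctcf* itself had a log2FC of -0.22 (SE 0.09, adjusted p = 0.151 in edgeR), with MA24 below MA12 in all rats. The 7 tested effectors inside the cell, which include the WAVE complex of actin control, had a median log2FC of -0.00. edgeR and DESeq2 each called 0 of them, and 2 had an unadjusted p below 0.05 in edgeR, where 23.6% of all genes had one. Among 10 tested relatives in the cadherin superfamily (median -0.21, 8 below 0), *Fat3*, a giant cadherin of dendrite shape, fell from 6.05 ± 0.14 to 5.40 ± 0.26 log2 CPM (log2FC -0.64, SE 0.12, adjusted p = 0.00904 in edgeR; SD, n = 4 each). In the comparisons with non-addicted rats edgeR and DESeq2 each called 0 genes of the 4 lists. At an unadjusted p below 0.05 in edgeR there were 3 of 11 catenins and partners, 2 of 9 regulators, 0 of 9 effectors and 4 of 9 relatives against MA12, where 12.3% of all genes were. Against MA24 there were 0 of 9, 3 of 12, 2 of 6 and 2 of 10, where 17.5% of all genes were.

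Between MA12 and MA24 the summed levels of the 11 marker lists overlapped for every list. Astrocyte markers, for example, summed to 2130 to 2657 CPM in MA12 and 2099 to 2433 in MA24, oligodendrocyte precursor markers to 360 to 436 and 328 to 433, and microglial markers to 234 to 275 and 224 to 297. Single markers were called: *Slc1a2* of astrocytes (log2FC -0.70), *Rgs5* of pericytes (-0.72) and *Prkcd* of thalamus (-0.94) were lower in MA24 by edgeR, and DESeq2 called the last 2 but not *Slc1a2*. DESeq2 also called *Slc17a7* of cortical neurons, higher in MA24 (log2FC 1.03, adjusted p = 0.069 in edgeR). For each of these genes the rats of the groups overlapped. Of the projection neuron markers, *Pdyn* was lower in MA24 without overlap (log2FC -0.57, adjusted p = 0.00838 in edgeR), below the FC limit. *Pde10a* (-0.47) was also lower without overlap, while *Rgs9* (0.33) was higher without overlap. The median of the 10 tested projection neuron markers was -0.07. The part of all these markers in the members' differences was not tested.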

How the data were processed

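The authors extracted total RNA with TRIzol, prepared poly-A libraries with the TruSeq v2 kit, removed adapters from the paired reads (Cutadapt 1.18), mapped to rn6 by STAR 2.7.0e and obtained gene counts from featureCounts. All libraries carry the same batch label. The submitters' processing notes also name HTSeq 0.12.4, and its role is not given in the sources used here. The values they deposited are raw counts, 17337 genes in 12 libraries of 17908962 to 23850284 counts, without normalization. Strand and overlap settings are not given in the sources used here. Genes carry the symbols of the table.

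Each pair of groups was fitted alone in edgeR 4.0.16 (R 4.3.3) with TMM scaling, glmQLFit and glmQLFTest. A gene entered if its mean count in the 8 libraries exceeded 4, after which the 15% of genes least variable in log2 CPM were dropped. P-values were Benjamini-Hochberg adjusted over all genes tested. For DEGs, the adjusted p was below 0.05 and the FC 1.5 or more (0.585 on the log2 scale). Levels in log2 CPM used a prior count of 2. The fit was tested on simulated counts. Alternatives were DESeq2 1.42.0, RLE factors, no or stricter filters, a joint fit of the 3 groups, leaving out each rat, and fits by N-numbered and plain-numbered rats.

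Members and lists were chosen with earlier results of these data known. Named in each comparison were members called, members with an adjusted p below 0.05 only, up to 5 others in each direction whose groups did not overlap, the most counted member of each subfamily and members called elsewhere. Further members were named as examples after their values were seen. List genes were named where called, and markers also where at 0. Projection neuron markers were also named where MA24 and MA12 did not overlap. Regulators of the clusters were also named at an unadjusted p below 0.05 in MA24 vs. MA12. Promoter windows came from RefSeq (GRCr8).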

Additional observations from a re-analysis of the deposited data

Results flagged for a closer look

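For each of the 21 named members and each group of 4 rats, the gap between the most extreme rat and its nearest neighbour was divided by the range of the group. Of 63 groups examined, 5 passed Dixon's 95% critical value for 4 samples, and chance alone passes about 1 in 20 groups, here 3.15. In 3 of them the extreme rat was MA24 rat 14N at the low end. *Pcdhb2* had a ratio of 0.869, with 1 count against 8 to 12 in the other MA24 rats. *Pcdhgb7* had a ratio of 0.89, with 222 counts against 339 to 426. *Pcdhac2* had a ratio of 0.871, with 246 counts against 384 to 508. In the non-addicted group, rat 9 was low for *Pcdhac2* (ratio 0.926, 348 counts against 499 to 625) and rat 12 was high for *Cdh8* (ratio 0.897, 2768 counts against 1728 to 1839). The ratios rest on log2 CPM, which takes depth into account, while the counts are raw.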

How the results depend on the processing

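No paired analysis was possible because the rat numbers differ between MA12, MA24 and the non-addicted group. In MA24 vs. MA12, 3 members were called, and leaving out 1 rat gave 2 to 6: *Pcdh19* was lost without MA12 rat 21, MA12 rat 31 or MA24 rat 14N, while without MA24 rat 9N *Pcdha4*, *Pcdhac2* and *Pcdhga2* were added. DESeq2 called 5 and the fit with a term for N-numbered rats 0. RLE factors, the other filters, all 3 groups in the fit and N-numbered rats alone each gave 3. The members' median log2FC, -0.35, ranged from -0.40 to -0.28 when 1 rat was left out. In non-addicted vs. MA12 the count of 0 became 2 in DESeq2 and 0 to 1 when 1 rat was left out (*Pcdhb2* without non-addicted rat 13), and the median ranged from -0.21 to -0.12. In non-addicted vs. MA24 the count of 0 became 1 in DESeq2 and was 0 without any 1 rat, with a median of 0.07 to 0.20, the lowest without MA24 rat 14N. *Cdh6* ranged from -0.98 to -0.71 in log2FC (highest edgeR or DESeq2 adjusted p 0.053) and *Pcdh7* from -0.94 to -0.59 (0.0778), each losing its call in 1 of 16 alternatives, the fit with that term. None of the 21 named differences that were refitted changed sign under any alternative run. These were differences whose groups did not overlap, so leaving out rats could hardly change a sign, and this is no measure of stability. Depth limits *Pcdhb2* and *Pcdh12* most, with at most 30 and 43 counts in a library.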
